A study of Saccharomyces cerevisiae with 8 samples.

Results

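*PBP1* was deleted in budding yeast, and the poly-A RNA of the *pbp1Δ* cells was set against that of WT cells in log phase in YPD, the rich medium of yeast extract, peptone and glucose in which yeast ferments. The comparison uses the 4 YPD libraries, 2 of WT and 2 of *pbp1Δ* cells, out of 8 in the series. It covers 5759 of the 5774 genes listed, those whose normalized counts averaged at least 10 across all 8 libraries. The other 4 libraries come from the same strains 3 h after a switch to YPL, in which lactate replaces glucose, and enter only the estimate of the spread and the comparison of media. All cells are of the prototrophic *Saccharomyces cerevisiae* background CEN.PK. The strain list of the study gives WT as MATa and the mutant as *pbp1Δ::Hyg*, a replacement of the gene by a hygromycin resistance cassette, with no mating type beside it. The labels call the libraries of a group biological replicates, and do not say whether the mutant cultures came from more than 1 transformant.

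Pbp1 is the yeast member of the ataxin-2 family. It was named for its binding to the poly(A)-binding protein Pab1, it is found in RNA granules, and it restrains the growth kinase complex TORC1 when cells respire. Puf3, an RNA-binding protein of the PUF family, binds a short element after the stop codon of many nuclear mRNAs that encode mitochondrial proteins, above all the parts of the mitochondrial ribosome. In glucose Puf3 is known to promote the decay of these mRNAs, and in respiring cells to favour their translation.

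Between 33651287 and 39476235 reads were assigned to genes in each YPD library. Values are normalized counts, and 1 read was worth 0.972 to 1.16 of them, depending on the library. Libraries with the same replicate number resembled each other across genotypes. Genes of the general stress response were higher in replicate 1 than in replicate 2 by a median log2 difference of 2.38 in WT and 1.91 in *pbp1Δ* cells. Over all genes, the log2 difference between replicates in WT correlated with that in *pbp1Δ* cells at 0.855, a description across genes, which are not independent replicates. The meaning of the numbers across genotypes is not given, and calls were therefore also read within the same-numbered pairs (*pbp1Δ* 1 over WT 1, *pbp1Δ* 2 over WT 2). Markers of mating type also separated the genotypes, with transcripts specific to a cells low and those specific to α cells high in both *pbp1Δ* libraries. Genotype at *PBP1* and these markers change together in every library and cannot be told apart in any result.

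Calls follow the thresholds in the study's methods, an adjusted p under 0.05 (here from limma, by Benjamini-Hochberg) together with a log2 change of more than 0.58 in either direction. By this rule 50 genes, 0.868% of those tested, fell in *pbp1Δ* cells, and 6 genes, 0.104%, rose. Without adjustment 386 lower and 86 higher genes had a p under 0.05. Apart from *PBP1* itself, the called genes were mostly of 2 kinds. The genes of mating gave 7 of the decreases and all 6 increases, with log2 changes between -10.27 and 10.32. A further 32 decreases were of nuclear genes for mitochondrial proteins, in 3 groups (18 mitoribosomal subunits, 6 genes of mitochondrial translation and 8 assembly or other mitochondrial genes), with log2 changes between -1.17 and -0.60. The remaining 10 include *ACO1*, also for a mitochondrial enzyme, arginine and phosphate genes and repeated sequences. In RNA of whole cultures, fewer cells with a transcript and less of it in each cell cannot be told apart.

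For all 56 called genes both libraries of one genotype were above both of the other, and the pairs had the same sign. The calls were made from these same values, so this describes the called genes and is no separate evidence. Libraries did not overlap for 17.8% of all genes in the lower direction and for 13.7% in the higher direction. Both pairs were below 0 for 39.3% of genes and above 0 for 30.5%. The pair fold changes of all genes correlated at 0.811, and their median was -0.03 in pair 1 and -0.02 in pair 2. With the replicate number as a block within each medium, 192 genes (3.33%) were lower and 22 (0.382%) higher, and these included all 56. The fit with the block uses the same libraries and fold changes, so this overlap is no separate evidence either. With 2 libraries against 2 an exact two-sided permutation test cannot go below p = 0.333, so the calls rest on the limma model. The calls also depended on the number of libraries. Leaving out any single library of the 8 left 9 to 13 genes lower and 6 higher. The 9 decreases called each time were *PBP1*, *HMRA1*, *MFA1*, *MFA2*, *STE2*, *AGA2*, *BAR1*, *STE6* and *YDR210W-B*.

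**Figure D1:**
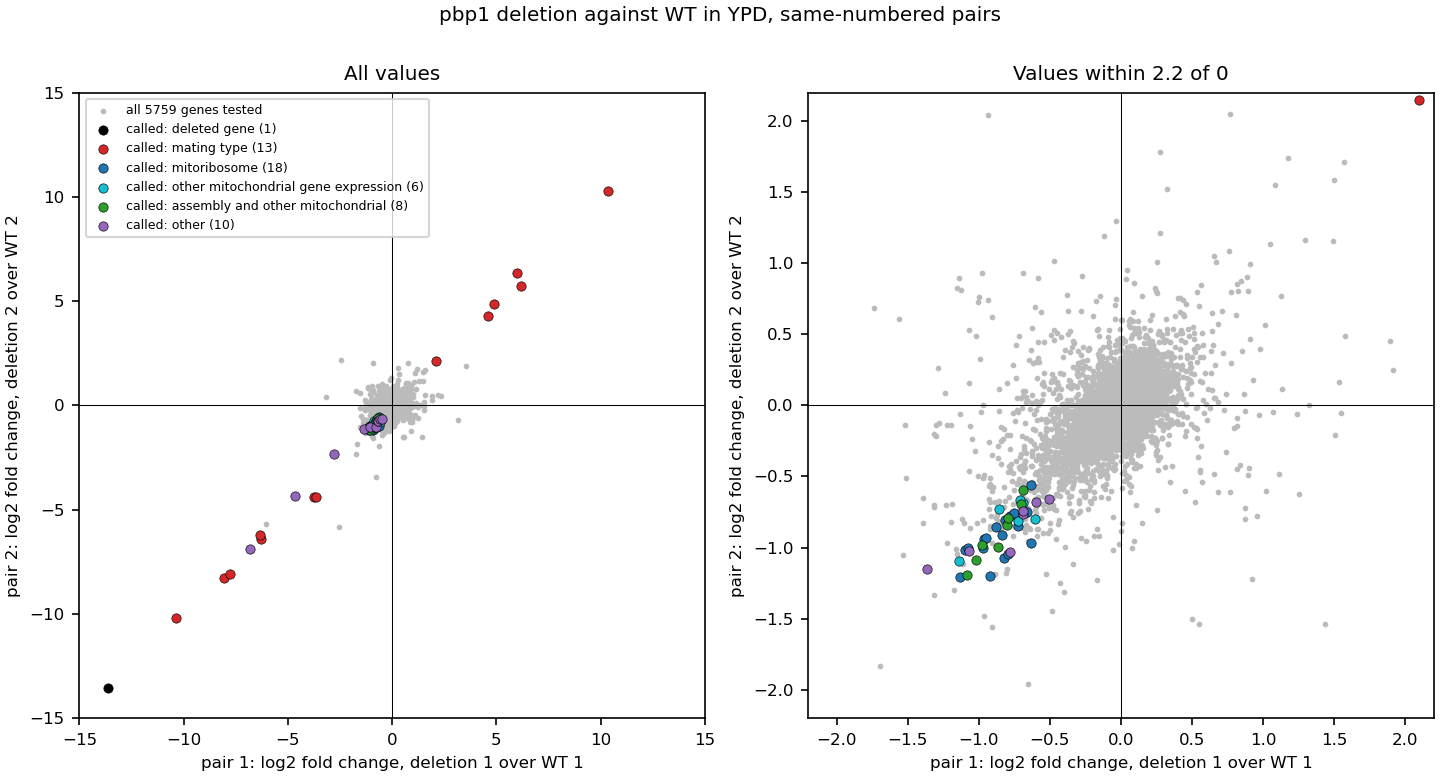
Log2 fold change of *pbp1Δ* over WT in YPD in pair 1 (x axis) and pair 2 (y axis), 1 point per gene, with the 5759 genes tested in grey and the 56 called genes coloured by role. The left panel shows all values and the right panel those within 2.2 of 0 on both axes. Every called gene lies in the lower left or the upper right corner of the plot, the mating genes reach from *HMRA1* (-10.35 and -10.20 in the pairs) to *MF(ALPHA)1* (10.34 and 10.29), and the called mitochondrial genes lie between -1.21 and -0.56 in both pairs.

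*PBP1* (YGR178C) is on the minus strand of chromosome VII (851047 to 853215, R64 assembly). The WT libraries held 12686 and 11943 normalized counts of it, and both *pbp1Δ* libraries held 0 reads. Taking 3 reads per library as the most that 0 reads allow, it was at least 3868-fold lower, which covers counting error only. The genes beside it were not called. *ATF2*, an alcohol acetyltransferase gene that follows it, had a log2 fold change of -0.34 (adjusted p = 0.675 from limma). *ERG1*, which encodes squalene epoxidase, was at -0.05. On the other side *OKP1*, for a kinetochore protein, was at 0.11 and *RNR4*, for the small subunit of ribonucleotide reductase, at 0.05.

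None of the 9 listed genes for proteins that bind Pbp1 or act with it was called, and 1 of them had an unadjusted p under 0.05. Their median log2 fold change was -0.06, beside -0.02 over all genes. *PAB1*, the poly(A)-binding protein gene, was at -0.29 (pairs -0.30 and -0.28, adjusted p = 0.274 from limma). *PUF3* mRNA had 1548 and 2142 normalized counts in WT and 1577 and 1843 in *pbp1Δ* cells, and the libraries overlapped. The values of *MKT1* (0.03), *PBP4* (-0.07), *LSM12* (0.04), *DHH1* (-0.05), *PAN2* (0.11), *PAN3* (-0.09) and *PBP2* (-0.06) were all closer to 0 than that of *PAB1*.

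The Puf3 element was searched as the letters TGTA, then N for any base, then ATA, on the gene's strand within 200 nt after the stop codon in the R64 reference. It was present in 33 of the 50 lower genes (66%) and in 834 of the 5759 tested (14.5%), and in 1 of the 6 higher genes, *AFB1*. These 33 genes held 42 elements, of which 22 read TGTAAATA, 11 read TGTATATA and 9 had another base at N. They began 18 to 182 nt after the stop codon, with a median of 69 nt, and 30 of the 42 had a C in the 2 bases before them. These details were taken for the 42 elements only and not for all 834 genes, so they are not a trait of the lower genes. The sites below were chosen to show the element in each group of lower genes, with its letters in capitals, 5′ to 3′ on the mRNA strand. *MRPL4*, *MRPS9*, *MEF1*, *ISM1*, *PET117*, *CYT2*, *BCS1* and *ARG1* are described in the following paragraphs, and *STE6*, an a-specific gene, is shown as the lower gene of the mating group that also holds the letters.
MRPL4: accctctctccTGTAAATAtatatatatat
MRPS9: ttcgttattccTGTAAATAaagttatatgt
MEF1: caaaacagtctTGTAAATAacaaattccaa
ISM1: tgtacctttccTGTATATAaagaatgccaa
PET117: ctactcttgttTGTATATAtgtaagaatcg
CYT2: acaactattccTGTAAATAaaaacataccc
BCS1: actacataactTGTATATAataaaaattca
ARG1: cactcttgtgaTGTAAATAcatatgtagac
STE6: tacatatttaaTGTATATAtttaatttatt
A match says that these letters lie in the window, not that Puf3 binds there.

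The mitochondrial ribosome, which translates the few mRNAs of the mitochondrial genome, gave the most called genes. Of 45 genes of its large subunit 12 fell, and of 34 of its small subunit 6 fell. That is 26.7% and 17.6% of the lists, beside 0.868% of all genes. The median log2 fold changes of the lists were -0.63 and -0.65. All but 1 of the 79 genes had a fold change below 0, beside 3135 of all 5759 genes. In 75 of the 79 both *pbp1Δ* libraries were under both WT libraries, beside 17.8% of all genes. An element lies in the window of 77 of the 79, beside 14.5% of all genes. The median over the 79 genes was -0.63 in pair 1 and -0.64 in pair 2. With the block within each medium 3.33% of all genes were lower, and 44 of the 79 passed. With each library centred on its median 7 of the 79 passed, and with the 4 YPD libraries alone 0. When any single library was left out none of them was called, while the list medians stayed between -0.75 and -0.55.

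The largest called decrease among these genes was that of *MRPL4*, a protein of the large subunit, with 2775 and 3303 normalized counts in WT and 1267 and 1432 in *pbp1Δ* cells. The change (log2 fold change -1.17, standard error 0.14, adjusted p = 0.0258 from limma) was -1.13 and -1.21 in the pairs. Both *pbp1Δ* libraries were thus under the lower WT library by more than the replicates of either genotype differed. *MRPL24* had 2862 and 3474 counts in WT and 1511 and 1514 in the mutant. *MRPL15* had 3807 and 4468 against 1781 and 2206. *RML2*, for the protein at the peptidyl transferase centre, had 4658 and 5568 against 2380 and 2773. In each of these genes WT replicate 2 was the highest library. For *MRPS9*, a small subunit protein, the counts were 6145 and 6692 in WT and 3176 and 3511 in *pbp1Δ* cells (log2 fold change -0.94, standard error 0.10, adjusted p = 0.016 from limma). *RSM23* had 4225 and 4410 counts in WT and nearly level replicates, 2359 and 2346, in the mutant. The other called genes of the large subunit were *MRPL17* (-1.04), *MRPL28* (-0.95), *MRPL3* (-0.87), *MRPL25* (-0.80), *MRPL35* (-0.79), *MRPL40* (-0.75), *MRPL1* (-0.71) and *MHR1* (-0.60), whose product also acts in recombination of mitochondrial DNA. Those of the small subunit were *FYV4* (-0.95), *RSM24* (-0.92), *MRP4* (-0.81), which overlaps YHL005C in the annotation, and *NAM9* (-0.78). Subunit genes that the study followed singly were short of the call in YPD. *MRP1*, which passed with the block within each medium, was at -0.73 (adjusted p = 0.0527), *MNP1* at -0.52 (0.0993), *MRP51* at -0.48 (0.150) and *RSM19* at -0.50 (0.395, all adjusted p from limma), and each was lower in both pairs. *MRPL38* had the lowest value of the large subunit list, -1.39, on 0 to 8.13 normalized counts per YPD library, and its pairs had opposite signs. It thus met the mean of 10 only through the YPL libraries.

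The enzymes that charge mitochondrial tRNAs and the factors that drive translation in mitochondria moved the same way in part. Of 17 genes for mitochondrial aminoacyl-tRNA synthetases 5 fell, beside 0.868% of all genes. The list median was -0.59, and 16 hold an element, beside 14.5% of all genes. *ISM1*, for isoleucine, had 2691 and 2669 normalized counts in WT and 1486 and 1610 in *pbp1Δ* cells (log2 fold change -0.79, standard error 0.09, adjusted p = 0.016 from limma). *SLM5*, for asparagine, had 1871 and 1892 against 1132 and 1073. The replicates of *ISM1* and *SLM5* were close, and the genotypes stood well apart. *MSY1*, for tyrosine, was at -0.70, *NAM2*, for leucine, at -0.69 and *MSD1*, for aspartate, at -0.69. Among 9 translation factor genes 1 fell, beside 0.868% of all genes. The called gene was *MEF1*, the mitochondrial elongation factor G, with 7075 and 7918 counts in WT and 3215 and 3707 in the mutant. It was 2.17-fold lower (log2 fold change -1.12, standard error 0.11, adjusted p = 0.0134 from limma). *IFM1*, an initiation factor gene (-0.73), and *RRF1*, for ribosome recycling (-0.70), passed only with the block within each medium, and the list median was -0.37. *MEF1* was called in 2 of the 8 fits that left out a library, and the 5 synthetases in none. None of the 16 translational activators of single mitochondrial mRNAs was called (6 with an unadjusted p under 0.05). *CBP3* and *MSS51*, which act on cytochrome b and Cox1 synthesis, were both at -0.45. *CBP6*, at -0.71, passed with the block within each medium. In the list for mitochondrial DNA and transcription 0 of 12 were called (4 unadjusted), with *DSS1*, a subunit of the mitochondrial RNA degradosome, at -0.72 (passed with the block within each medium) and *RPO41*, the mitochondrial RNA polymerase, at -0.43. *MSS116*, at -0.72, also passed with that block.

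**Figure D2:**
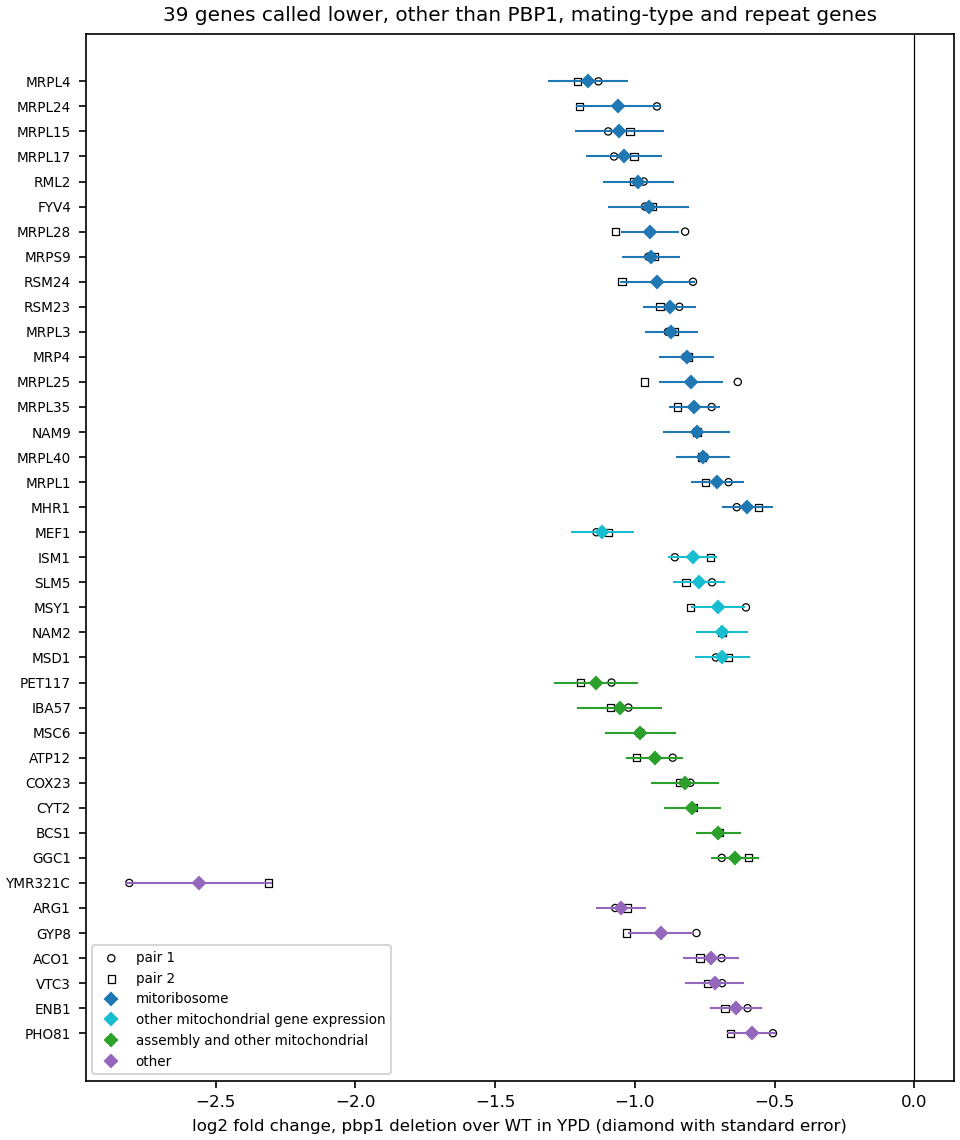
Log2 fold change of *pbp1Δ* over WT in YPD for 39 of the called decreases, without *PBP1*, the 7 mating genes, *YDR210W-B*, *YRF1-4* and 1 gene that is not reported here. Diamonds with bars are the limma estimate and its standard error, open circles and squares are pairs 1 and 2, and colours give the role. The mitoribosomal genes run from -1.17 for *MRPL4* to -0.60 for *MHR1*, and both pairs lie below 0 in every row.

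Some genes that assemble the respiratory chain fell, and no gene for a structural subunit was called. Of 26 genes for cytochrome c oxidase assembly 2 fell, beside 0.868% of all genes. The list median was -0.38, and 24 were below 0 in both pairs, beside 39.3% of all genes. *PET117* had 734 and 916 normalized counts in WT and 346 and 400 in *pbp1Δ* cells (log2 fold change -1.14, standard error 0.15, adjusted p = 0.0297 from limma). *COX23*, for a small protein of the intermembrane space, had 1250 and 1371 against 717 and 765, a value of -0.82. *COX17*, the copper chaperone gene, was at -0.86 and *COX10*, the heme A farnesyltransferase gene, at -0.77, with adjusted p of 0.0978 and 0.0884 from limma. Both were lower in both pairs and passed with the block within each medium. Other called genes with an element were *CYT2*, for the lyase that joins heme to cytochrome c1 (-0.79), *BCS1*, which inserts the Rieske protein into complex III (-0.70), *ATP12*, a chaperone of the F1 ATPase (-0.93), *IBA57*, which acts in iron-sulfur protein maturation (-1.05), and *MSC6* (-0.98). *GGC1*, the mitochondrial GTP/GDP carrier gene, fell (-0.64) and has no element in the window. *BCS1* had 3729 and 3748 counts in WT and 2285 and 2312 in *pbp1Δ* cells, with little difference between the replicates of either genotype.

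Of the 31 genes for subunits of complexes III, IV and V, 0 were called (5 with an unadjusted p under 0.05). Their median was -0.16, and 5 hold an element, beside 14.5% of all genes. In 24 of the 31 both pairs were below 0, beside 39.3% of all genes. In 19 both *pbp1Δ* libraries were under both WT libraries, beside 17.8% of all genes. *ATP14* and *TIM11* were the nearest to a call, at -0.34 and -0.29. The study also followed *POR1* and *ATP2* singly, as mRNA and as protein, and *COX4* as protein. These genes have no element in the window. Their mRNA values here were -0.45 for *POR1* (adjusted p = 0.441), -0.20 for *ATP2* (0.941) and -0.18 for *COX4* (0.900, all from limma). *POR1*, the porin gene, had 26670 and 21042 counts in WT and 19230 and 15538 in *pbp1Δ* cells, so its value lay within the range of the mitoribosomal genes that were not called. *ACT1* was at -0.07 and *PGK1* at -0.04. Import of proteins into mitochondria gave 0 calls among 32 genes (11 unadjusted), with a median of -0.18, *MAS2* at -0.51 and *TOM40* at -0.39. *MAS1*, at -0.63, passed with the block within each medium. In 28 of the 32 both pairs were below 0, and in 18 the libraries did not overlap in the lower direction. Mitochondrial chaperones and proteases gave 0 among 19 (5 unadjusted), with *SOM1* at -0.73 (passed with the block within each medium) and *AFG3* at -0.41. *HSP78*, at -0.61, also passed with that block. In the tricarboxylic acid cycle 1 of 15 genes fell, beside 0.868% of all genes. The called gene was *ACO1*, for aconitase, with 20926 and 21047 counts in WT and 12973 and 12368 in the mutant (log2 fold change -0.73, standard error 0.10, adjusted p = 0.036 from limma). It has no element. *SDH1* (-0.49) and *SDH2* (-0.44), for succinate dehydrogenase, and *IDH2* (-0.38), for isocitrate dehydrogenase, were not called. Of the 15 genes 13 were below 0 in both pairs, and 6 did not overlap in the lower direction. *ACO1* was called in 0 of the 8 fits that left out a library.

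Arginine synthesis was the amino acid pathway with called genes. Of its 9 genes 2 fell, beside 0.868% of all genes, and 9 were below 0, beside 3135 of all 5759. The list median was -0.46. *ARG1*, argininosuccinate synthetase, had 2364 and 2510 normalized counts in WT and 1125 and 1230 in *pbp1Δ* cells (log2 fold change -1.05, standard error 0.09, adjusted p = 0.00513 from limma). *ARG1* was called in 6 of the 8 fits that left out a library. *ARG3* (-0.96) and *ARG4* (-0.64) passed only with the block within each medium. *ARG8*, at -0.01, and *ARG2*, at -0.16, which act in making the precursor ornithine inside mitochondria, were nearest to 0. *ARG56* (-0.28) and *ARG7* (-0.46), of the same branch, were lower in both pairs and not called. Of the 9 genes 2 hold an element, *ARG1* and *ARG4*, beside 14.5% of all genes.

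Among 50 genes for the synthesis of other amino acids 0 were called (16 unadjusted) and the median was -0.19. *HIS3* was at -0.53 and *HOM3*, aspartate kinase, at -0.62. With the block within each medium *HOM3*, *HIS4* (-0.74), *BAT2* (-0.72) and *ARO1* (-0.61) passed. Sulfur assimilation gave 0 calls among 31 genes (10 unadjusted) and a median of -0.23, and 4 passed as lower with the block within each medium (*MET17*, *MET5*, *STR3* and *MHT1*). *MET17*, which makes homocysteine, had 13880 and 14209 counts in WT and 5899 and 8726 in *pbp1Δ* cells, a value of -0.97 (adjusted p = 0.0815 from limma), and *MET3*, ATP sulfurylase, was at -0.54.

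The phosphate regulon is switched on by the factor Pho4 when phosphate is short, and is held off by the kinase Pho85 with its cyclin Pho80. Of its 21 genes 2 fell, beside 0.868% of all genes, and 18 had values below 0 in both pairs, beside 39.3% of all genes. The list median was -0.58, from -0.78 to -0.38 when single libraries were left out. *VTC3*, a subunit of the vacuolar polyphosphate synthase, had 41277 and 37796 normalized counts in WT and 25621 and 22607 in *pbp1Δ* cells (log2 fold change -0.71, standard error 0.10, adjusted p = 0.0419 from limma). *PHO81*, the inhibitor of Pho80 and Pho85, had 8652 and 9512 against 6093 and 6023 (log2 fold change -0.58, standard error 0.09, adjusted p = 0.0456 from limma). In *VTC3* and *PHO81* the genotypes did not overlap. Neither was called when any single library was left out.

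Other members had larger differences and wider replicates. *PHO84*, the high-affinity phosphate transporter, had 112810 and 139690 counts in WT and 66761 and 73944 in the mutant (-0.84). *PHO89*, the sodium-coupled transporter, had 27895 and 22730 against 14896 and 7698 (-1.23). The secreted acid phosphatase *PHO5* had 4974 and 1425 in WT and 2228 and 706 in *pbp1Δ* cells, so that the WT replicates differed more than the genotypes, while the pairs gave -1.16 and -1.01. *PHO12* (-1.76) and *PHO11* (-1.33) encode nearly identical acid phosphatases, whose uniquely mapped reads may be split uncertainly. With the block within each medium 3.33% of all genes were lower, and 11 of the 21 genes passed, all lower. These were *VTC3*, *PHO81*, *PHO84*, *PHO89*, *PHO5*, *PHO3*, *PHO11*, *PHO12*, *SPL2*, *PHM6* and *GIT1*. The regulators *PHO4* (-0.25), *PHO2* (-0.08), *PHO80* (0.13) and *PHO85* (0.18) were not called. In 7 of the 21 genes the WT replicates differed more than the genotypes did, beside 3807 of all 5759 genes.

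**Figure D3:**
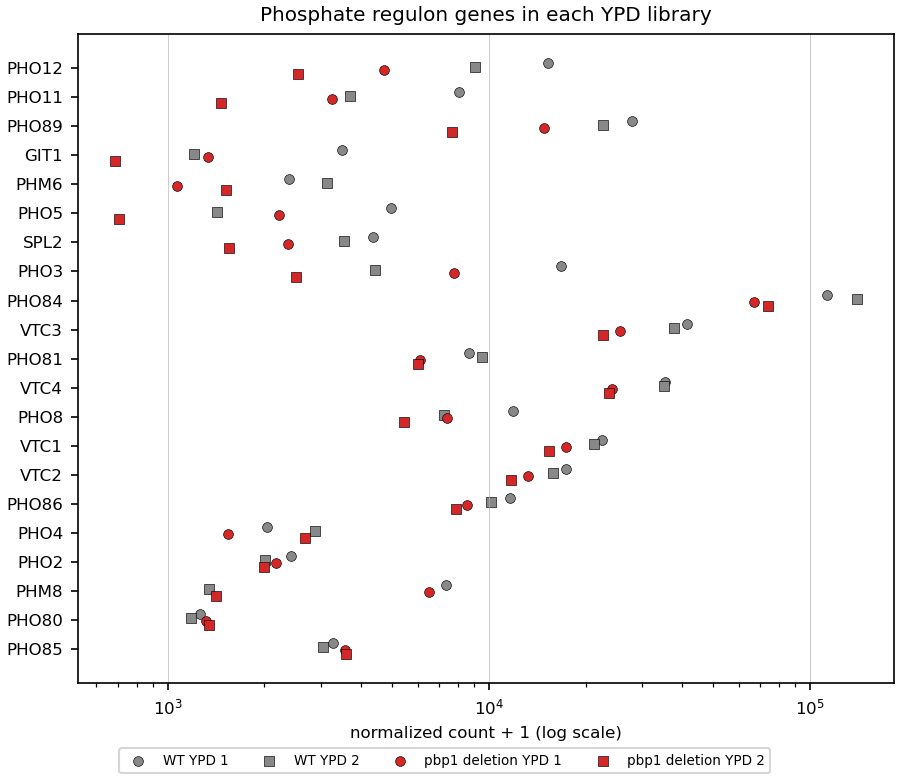
Normalized counts plus 1 on a log scale (x axis) of the 21 phosphate regulon genes in each YPD library, with WT in grey and *pbp1Δ* in red, circles for replicate 1 and squares for replicate 2. In most rows each red symbol lies left of the grey symbol of the same shape, as in 18 of 21 genes that were lower in both pairs, while for *PHO5*, *PHO3*, *GIT1* and *PHM8* the replicates are further apart than the genotypes.

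Haploid yeast is of mating type a or α. Cells of type a make a-factor and carry the receptor for α-factor, α cells the reverse, and the locus MAT decides which set is expressed. Of the 7 a-specific genes 6 fell. *MFA1*, which encodes a-factor, had 7704 and 11016 normalized counts in WT and 27.9 and 34.2 in *pbp1Δ* cells, 289-fold lower (log2 fold change -8.17, standard error 0.21, adjusted p = 6.68e-06 from limma). The second a-factor gene, *MFA2*, had 15321 and 21270 against 69.1 and 77.5. *STE2*, the α-factor receptor, had 29992 and 30338 against 377 and 355, and was 82.2-fold lower. *AGA2*, the adhesion subunit of a-agglutinin, had 1507 and 1633 against 17.8 and 21.1. *BAR1*, the protease that degrades α-factor, had 5184 and 7655 against 385 and 363. *STE6*, the exporter of a-factor, had 11358 and 13854 against 907 and 661. In each of these genes the lower WT library was more than 10 times the higher *pbp1Δ* library. The seventh, *ASG7*, had 468 and 310 against 141 and 61.4 (-2.02, adjusted p = 0.100 from limma) and passed with the block within each medium. *HMRA1* (YCR097W, chromosome III from 293835 to 294321), the gene of the silent cassette HMR whose sequence MATa cells also carry at MAT, had 1302 and 1174 counts in WT and 0 reads in both *pbp1Δ* libraries, at least 389-fold lower. The other 3 genes of the mating-type and silent loci on the list were not analysed here.

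All 5 α-specific genes rose. *MF(ALPHA)1*, the main α-factor gene, had 52.2 and 75.8 normalized counts in WT and 69010 and 96273 in *pbp1Δ* cells, 1274-fold higher (log2 fold change 10.32, standard error 0.73, adjusted p = 0.00173 from limma). *STE3*, the a-factor receptor, had 258 and 209 against 16267 and 17118. *MF(ALPHA)2* had 196 and 268 against 14449 and 14134. *SAG1*, α-agglutinin, had 1198 and 1127 against 36032 and 33265. *AFB1*, which blocks a-factor, had 499 and 581 against 12099 and 11449, and was 21.8-fold higher. For these genes both replicates of a genotype were within 1.5 times of each other, far less than the difference between genotypes. In the WT libraries the α-specific genes were not at 0, and in the *pbp1Δ* libraries the 7 a-specific genes were not either.

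**Figure D4:**
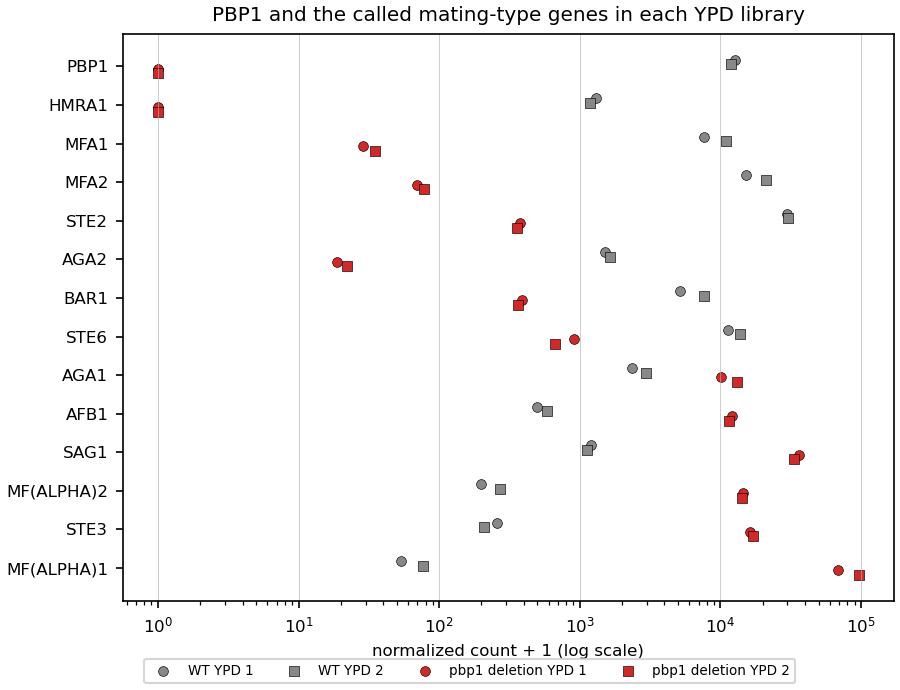
Normalized counts plus 1 on a log scale (x axis) of *PBP1* and the 13 called mating genes in each YPD library, with WT in grey, *pbp1Δ* in red, circles for replicate 1 and squares for replicate 2. *PBP1* and *HMRA1* are at 0 reads in *pbp1Δ* cells, the a-specific genes lie to the right in WT, and *AGA1* and the 5 α-specific genes lie to the right in *pbp1Δ* cells.

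The pheromone pathway that haploids of both types share was mostly level. Of its 18 genes 0 were called (1 with an unadjusted p under 0.05) and the median was 0.01. That gene was *SST2*, which damps the signal, at 0.81 (adjusted p = 0.238 from limma, passed with the block within each medium), and *RGA1* was next at -0.16. Of 24 genes that pheromone induces 1 rose, beside 0.104% of all genes. In total 21 of the 24 were above 0, beside 2624 of all 5759 genes, and the median was 0.16. *AGA1*, the anchor subunit of a-agglutinin, had 2352 and 2948 normalized counts in WT and 10054 and 13061 in *pbp1Δ* cells, 4.35-fold higher (log2 fold change 2.12, standard error 0.18, adjusted p = 0.00513 from limma). *PRM1*, for membrane fusion, had 733 and 750 against 1551 and 2198 (1.32, adjusted p = 0.0569 from limma). With the block within each medium 7 of the 24 passed as higher, beside 0.382% of all genes. Among them were *FUS1* (628 and 961 against 1864 and 3153), *FIG2* and *KAR4*. Of the 24, 1 passed as lower, *ASG7*.

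Genes beside the mating-type genes on the chromosome were also examined. The annotation places 24 tested genes directly next to a gene of these lists. Of them 1 was called, *GYP8*, for a GTPase-activating protein of vesicle transport, which lies 667 nt from *STE2* on the other strand. It had 2126 and 2290 normalized counts in WT and 1238 and 1121 in *pbp1Δ* cells (log2 fold change -0.91, standard error 0.12, adjusted p = 0.0297 from limma), and it was called in 0 of the 8 fits that left out a library. With the block within each medium 4 of the 24 passed as lower and 2 as higher, beside 3.33% and 0.382% of all genes. These 6 had the direction of their neighbour, as did 16 of the 24 in total. Over all 5759 genes 3135 were below 0 and 2624 above. *UIP4*, beside *MF(ALPHA)1*, went against its neighbour at -0.54, and *TOH1*, beside *ASG7*, went with its own at -0.54. Their adjusted p with the block were 0.0413 and 0.0248 from limma, and both missed the fold threshold. Among the 6 that passed, *NFG1*, 383 nt from *AFB1*, had 555 and 874 counts in WT and 1564 and 1950 in the mutant. *LIF1*, 206 nt from *MF(ALPHA)2*, had 1054 and 953 against 1725 and 1513. *HOP2*, 168 nt from *AGA2*, had 61.5 and 88.5 against 27.9 and 40.3. *MPF1*, 289 nt from *MFA2*, was at -0.62, and *GIT1*, 2727 nt from *HMRA1*, is also a phosphate gene. *RDT1* (YCL054W-A), chosen after its value was seen, lies on the left arm of chromosome III from 30910 to 30996 and had 505 and 1042 counts against 6.69 and 19.1, a value of -5.87 (adjusted p = 0.0683 from limma) that passed with the block. Whether reads were counted by strand is not stated, so reads of overlapping transcripts cannot be assigned to a strand.

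A few called genes are repeated or have close copies. *YDR210W-B*, a Ty gag-pol reading frame that overlaps *YDR210W-A*, had 111 and 118 normalized counts in WT and 0 reads in both *pbp1Δ* libraries, at least 36.0-fold lower (adjusted p = 0.00126 from limma). *YRF1-4*, a helicase gene of the subtelomeric Y′ elements that overlaps YLR464W, had 24.4 and 19.4 against 0 and 0 reads, at least 6.88-fold lower. *YMR321C*, a reading frame near a chromosome end similar to *SAM4*, had 217 and 209 against 30.1 and 41.3 (-2.56, adjusted p = 0.014 from limma). Only reads that map to 1 place were counted, and a copy that differs between the strains and one that is expressed less cannot be told apart here. *YRF1-4* was called in 2 and *YMR321C* in 1 of the 8 fits that left out a library. Of 25 retrotransposon reading frames in the table only *YDR210W-B* was called, and *YHR214C-B* was next at -0.49.

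**Figure D5:**
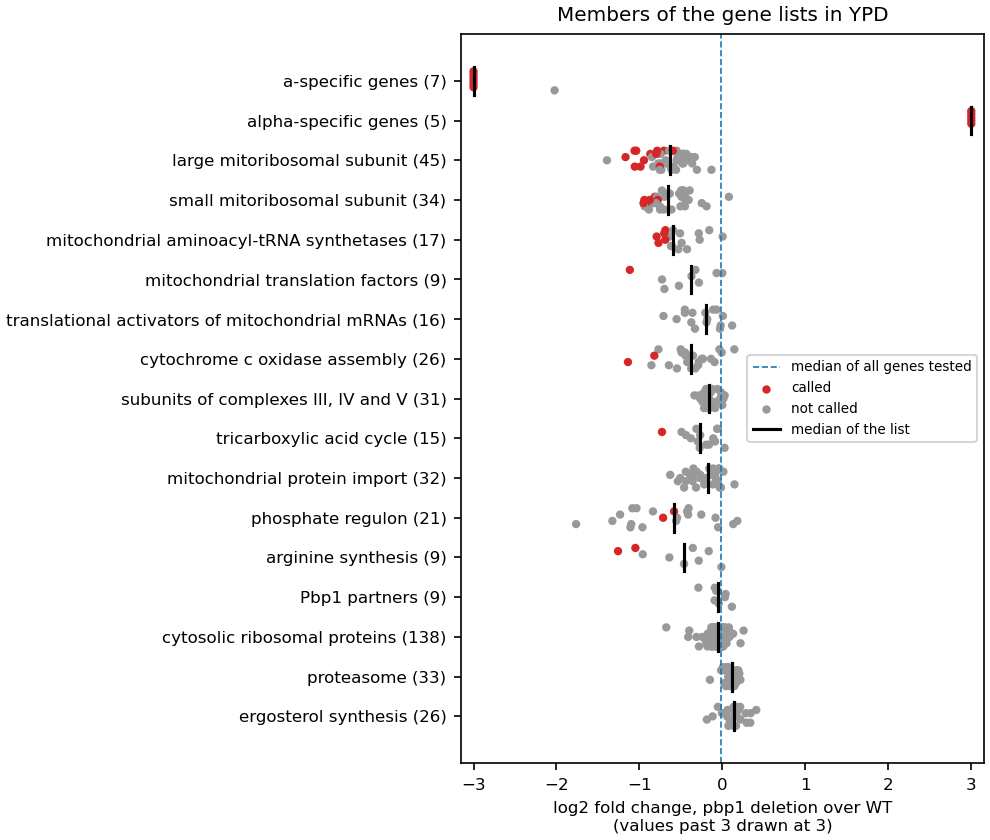
Log2 fold change of *pbp1Δ* over WT in YPD of the members of 17 gene lists, with called genes in red, other genes in grey, the list median as a black bar and the median of all genes, -0.02, as a dashed line. The mitoribosomal, synthetase, phosphate and arginine lists lie to the left with medians between -0.65 and -0.46, while the proteasome and ergosterol lists lie slightly to the right with medians of 0.12 and 0.14 and no called gene. Values past 3 in either direction are drawn at 3.

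Other lists had few or no called genes. In the iron regulon 1 of 28 fell, beside 0.868% of all genes. *ENB1*, a siderophore transporter gene, had 5700 and 5970 normalized counts in WT and 3769 and 3733 in *pbp1Δ* cells (log2 fold change -0.64, standard error 0.09, adjusted p = 0.0419 from limma), and was called in 0 of the 8 fits that left out a library. The list median was -0.06. The proteasome, whose 33 genes share the activator Rpn4, had 0 calls (0 unadjusted) with a narrow range from -0.15 to 0.22. In 28 of its genes both pairs were above 0, beside 30.5% of all genes. In 24 the libraries did not overlap in the higher direction, beside 13.7% of all genes. *RPN3* had 14698 and 15189 counts in WT and 17006 and 17412 in *pbp1Δ* cells, a value of 0.20, and *RPN12* was at 0.19. Ergosterol synthesis had 0 calls among 26 genes (3 unadjusted), with both pairs above 0 in 22 (30.5% of all genes) and a median of 0.14. *ERG2*, sterol isomerase, had 19440 and 22147 against 26816 and 28265 (0.41, adjusted p = 0.197 from limma), and *ERG26* was at 0.28. Fatty acid synthesis (0 of 19 called, 0 unadjusted) had *INO2* at -0.22 and *CHO1* at 0.17.

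The lists of cytosolic translation had no called gene and medians between -0.12 and -0.05, beside -0.02 over all genes. The 138 genes for cytosolic ribosomal proteins had a median of -0.05 with 0 called (2 unadjusted), with the smallest p for *RPL9B* at -0.40 and *RPS7B* at -0.28. *RPS9A* had the lowest value, -0.68, and passed with the block within each medium. These 3 have paralogs that share sequence. Ribosome biogenesis (0 of 79, 5 unadjusted) had a median of -0.12, with *NOP2* at -0.47 and *NOP58* at -0.36. Among translation factors (0 of 35, 4 unadjusted) *RPG1*, a subunit of initiation factor eIF3, was at -0.40. Cytosolic aminoacyl-tRNA synthetases (0 of 15, 0 unadjusted) had a median of -0.07, against -0.59 for the mitochondrial enzymes, with *YDR341C* at -0.19 and *FRS2* at -0.16. Both pairs were below 0 in 68 of the 138 ribosomal protein genes and 51 of the 79 biogenesis genes. They were below 0 in 28 of the 35 factor genes and 11 of the 15 synthetase genes, beside 39.3% of all genes. Libraries did not overlap in the lower direction for 30, 11, 16 and 6 of them in this order, beside 17.8% of all genes. The PUF family (0 of 6, 0 unadjusted) had *PUF4* at -0.38 and *PUF6* at -0.22, and mRNA deadenylation and decay (0 of 33, 4 unadjusted) *PAT1* at -0.37 and *CCR4* at -0.36. TORC1 and its regulators (0 of 22, 2 unadjusted) had *NPR1* at -0.38 and *TOR1* at -0.26, and autophagy (0 of 30, 0 unadjusted) *ATG23* at -0.31 and *ATG33* at -0.24. Nitrogen catabolite repression (0 of 26, 1 unadjusted) had *MEP3* at -0.37 and *URE2* at -0.25.

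Glycolysis and fermentation (0 of 22, 0 unadjusted) had *HXK2* at -0.23 and *PFK2* at -0.24, and *HXK1*, at -0.77, passed as lower with the block within each medium. In all 22 genes the WT replicates differed more than the genotypes, beside 3807 of the 5759 genes tested. Hexose transporters (0 of 17, 1 unadjusted) had *HXT3* at -0.40 and *HXT9* at 0.34. Gluconeogenesis (0 of 14, 0 unadjusted) had *ACS1* at -0.37 and *CAT8* at -0.29. Of 29 general stress genes 0 were called (1 unadjusted), the median was -0.26 (from -1.68 to 0.84 when single libraries were left out), and in 27 the WT replicates differed more than the genotypes (3807 of the 5759 tested). *HSP12*, a small heat shock protein gene, had 1023 and 657 counts in WT and 487 and 320 in *pbp1Δ* cells (-1.05, adjusted p = 0.436 from limma), with pairs of -1.07 and -1.03, and *YGP1* was at -1.01. Both passed with the block within each medium, as did the chaperone gene *HSP26* (-0.96). Of the heat shock chaperones (0 of 19 called, 0 unadjusted) *YDJ1* was at -0.11. Antioxidant genes (0 of 24, 1 unadjusted) had *TRR1* at -0.22 and *SKN7* at -0.24. Heme synthesis and oxygen regulators (0 of 17, 2 unadjusted) had *HEM1* at -0.38 and *ROX1* at 0.39. Histones (0 of 11, 0 unadjusted) had *HTA1* at -0.16 and *HHT1* at -0.21, and cyclins and cell cycle inhibitors (0 of 22, 0 unadjusted) *CLB4* at 0.26 and *CLN1* at -0.27.

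The genes called in YPD were also read in YPL, where 240 genes (4.17%) were lower and 30 (0.521%) higher by the same rule. The comparisons of the media share no library but share the fit. Of the 50 genes that fell in YPD 45 were also lower in YPL, and of the 6 that rose 5 were also higher. The 5 decreases not called in YPL were *GYP8* (-0.91 in YPD and -0.16 in YPL), *ACO1* (-0.73 and -0.06), *VTC3* (-0.71 and -0.19), *ENB1* (-0.64 and -0.19) and *PHO81* (-0.58 and -0.24). For these 5 the difference between the media did not pass without the block, with adjusted p of 0.461, 0.439, 0.593, 0.616 and 0.656 from limma. The increase not called in YPL was that of *MF(ALPHA)2* (5.95 in YPD and 0.87 in YPL, adjusted p of the difference 0.00144 from limma). The difference also passed for *STE2* (-6.36 and -3.56) and *SAG1* (4.90 and 1.03). Thus 3 of the 56 genes passed this test, all 3 of them mating genes with the larger change in YPD. Over all 5759 genes 4 passed it. The 56 were picked by their YPD change, which enters this difference, so the count is not a trait of these genes. For the fit with a block no count over all genes is given, so its count is not a trait of these genes either. With the replicate number as a block within each medium 28 of the 56 passed. They include *ACO1*, *GYP8*, *VTC3* and *ENB1* (adjusted p = 0.00991, 0.0232, 0.0232 and 0.0481 from limma), not *PHO81* (0.0993), and mitochondrial genes with the larger decrease in YPL, such as *MSY1* (-0.70 in YPD and -1.78 in YPL, 0.00160). The 21 phosphate genes had a median of 0.02 in YPL, against -0.58 in YPD, and none of them was called there.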

How the data were processed

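Poly-A RNA-seq reads were processed by the authors. Per the study's methods, reads were trimmed with Trim Galore, checked with FastQC, aligned to the S288C genome with STAR (2.7.3a), and uniquely mapped reads were counted per gene with featureCounts (Subread 1.6.3) on the R64-1-1 annotation. The authors deposited normalized counts, a signal on a linear scale. Within a library, every value above 0 was a whole multiple of 1 number (100% within 0.01 of a read), so the values convert to whole reads. In each library 58 to 80 of them stood for up to 20 reads. A count model was thus possible but was not run. All 5774 identifiers matched the R64 reference, from which coordinates and sequences come.

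Here log2(normalized count + 1) was fitted with limma 3.58.1 (R 4.3.3), in a model of 4 groups over 8 libraries with a trended prior, on genes with a mean of at least 10. Fold changes are on this scale and understate those of low genes. P-values were adjusted by Benjamini-Hochberg over all 5759 genes. With 2 libraries per group, 4 residual degrees of freedom remain. The lists were described by counts and medians. Named genes are *PBP1*, its neighbours and partners, every called gene except 1 that is not reported here, the called members of each list or the 2 with the smallest p, genes the paper names, and those called in YPD only. *SDH1*, *SDH2* and genes that passed only with the block were chosen after their values were seen. Genes, lists and tests were chosen with earlier results of these data known. Alternatives changed the pseudocount, filter, scaling, block, trend, fold threshold and element window, and left out libraries. Python 3.11.15, numpy 2.4.6, pandas 2.3.3 and matplotlib 3.10.9 made the tables and plots.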

Additional observations from a re-analysis of the deposited data

Results flagged for a closer look

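The change of 3 called genes differed between the media by the test of the difference itself, with the YPD value subtracted from the YPL value on the log2 scale. For *STE2*, the α-factor receptor gene, this difference was 2.80 (adjusted p = 0.00144 from limma). For *SAG1*, the α-agglutinin gene, it was -3.87 (adjusted p = 0.000986 from limma). For *MF(ALPHA)2*, the second α-factor gene, it was -5.09 (adjusted p = 0.00144 from limma). Each was nearer to 0 in YPL, and all are specific to a mating type. Over all 5759 genes 4 passed this test. With the replicate number as a block within each medium 28 of the 56 called genes passed it, and no count over all genes is given for that fit. The 56 were picked by their YPD change, which enters the difference, so the counts among them are not a trait of these genes.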

How the results depend on the processing

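The counts of 50 decreases and 6 increases moved by no more than 1.5 times with a pseudocount of 0.5 or 8, no filter, a mean of at least 100, no fold threshold, or a replicate block over both media (75 and 7, with 48 of the 50 among the 75). At a mean of at least 100, 47 of the 50 were called. Centring each library on its median gave 23 decreases, no trend in the prior 32, a fold change over 1 on the log2 scale 20, and the 4 YPD libraries alone 9. With the replicate block within each medium there were 192 decreases and 22 increases, and with it in the YPD libraries alone 198 and 26. The number of called genes whose change differed between media went from 3 to 28 with the block within each medium, with no count over all genes for that fit. The block takes same-numbered libraries as pairs, which neither labels nor methods state. The log2 difference between replicates in WT correlated across genes with that in *pbp1Δ* cells at 0.855 in YPD and 0.243 in YPL.

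Leaving out each library in turn gave 9 to 13 decreases, 6 increases and 3 to 4 differences between media. A group then rests on 1 library, which is assumed to vary like the other groups. Of the 12 largest decreases and the 6 increases, 8 decreases and 5 increases were called under all 19 alternatives, and none changed direction. *YDR210W-B* lost its call only by falling under the mean of 100, and the other 4, among them *YRF1-4*, *YMR321C* and *AGA1*, lost theirs in some. Centring moved the median of all genes from -0.02 to 0.05, and the medians of 19 lists changed sign under some alternative, among them the iron, cytosolic ribosomal protein, Pbp1 partner, ribosome biogenesis, general stress and autophagy lists. The element was in 56% of the lower genes within 100 nt and in 68% within 300 nt. The planned edgeR and DESeq2 fits were not run. Each library held at least 33651287 reads on genes, and how depth bears on the calls was not tested.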
